A study of Capsella grandiflora x Capsella rubella and Capsella rubella and Capsella grandiflora with 8 samples.

Results

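Seeds of the reciprocal hybrids between Capsella rubella (Cr), a self-fertilising plant, and Capsella grandiflora (Cg), its outcrossing relative, were compared with each other. Both hybrids carry the same pair of genomes and differ in which species was the mother. In Cr × Cg the mother was C. rubella and the father C. grandiflora, and in Cg × Cr the roles were reversed (female named first throughout). Each hybrid was represented by 2 RNA-sequencing libraries, and 2 libraries of pure Cr seeds and 2 of pure Cg seeds from the same series served as the parental levels. All flowers were emasculated and pollinated by hand, all seeds were collected whole at 6 days after pollination, and every library pooled 300 to 500 seeds. No treatment was applied. One accession stood for each species, so a difference between species or hybrids is that of these accessions. The genes compared were all 21214 of the 26521 annotated C. rubella genes that passed a filter on low counts, and the other 5307 were not tested. Genes are given by their C. rubella identifier, and by the name of the Arabidopsis gene with which the study's tables pair them where there is one.

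A seed holds an embryo, an endosperm that feeds it and a seed coat made only by the mother. The endosperm receives more copies of the maternal genome than of the paternal one, and many genes in it are imprinted, that is, read mainly from the maternal or mainly from the paternal copy. In Arabidopsis and its relatives the endosperm first divides as a syncytium of free nuclei and then forms cell walls, a step called cellularization. The FERTILIZATION INDEPENDENT SEED (FIS) Polycomb complex, a repressor that marks histones, is needed in Arabidopsis for that step to take place. Reversing a cross changes both the dosage of each genome in the endosperm and the genotype of the seed coat. In whole seeds, fewer cells of a type and less RNA per cell cannot be told apart. Equal days also did not mean equal stages. The study reports that endosperm of Cr × Cg seeds failed to form cell walls and that their embryos were delayed. In Cg × Cr seeds it reports walls formed early. Stage and direction of the cross cannot be told apart in these libraries.

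The libraries held 24838286 to 34290034 counts on genes. Replicates of 1 cross correlated at r = 0.960 to 0.969 on log2 values, libraries of the opposite hybrids at 0.767 to 0.852, and libraries of the 2 parents at 0.872 to 0.892. The first principal component took 44.3% of the variance and put the Cr × Cg libraries (117 and 160) and the Cg × Cr libraries (-107 and -65.9) at its ends, with the parental libraries between -67.8 and 9.97. Replicates disagreed most visibly in seed storage transcripts. The summed level of 12 storage and maturation homologues, in CPM (counts scaled to a common library total with TMM factors), was 12793 and 1111 for the Cr replicates and 450.5 and 228 for Cg. For Cr × Cg it was 1288 and 73.6, and for Cg × Cr 5064 and 2397. Replicate 1 was the higher library in every cross.

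The reversal of the cross was accompanied by differences at 5213 genes (24.6% of those tested) at an adjusted p under 0.05 in edgeR's quasi-likelihood test with Benjamini-Hochberg adjustment. Of these, 2451 (11.6%) were higher in Cr × Cg and 2762 (13.0%) were higher in Cg × Cr. The median size of the difference was larger on the Cr × Cg side. There the median log2 fold change was 2.26 (quartiles 1.14 and 4.81), 1024 genes had a value of at least 3 and 557 of at least 5. Genes higher in Cg × Cr had a median of -1.75 (quartiles -2.88 and -1.12), with 639 genes beyond 3 and 169 beyond 5 in size. No count at all was recorded in either Cg × Cr library for 86 of the genes higher in Cr × Cg, nor in either Cr × Cg library for 53 of the genes higher in Cg × Cr. Over all tested genes the median log2 fold change was -0.02.

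**Figure D1:**
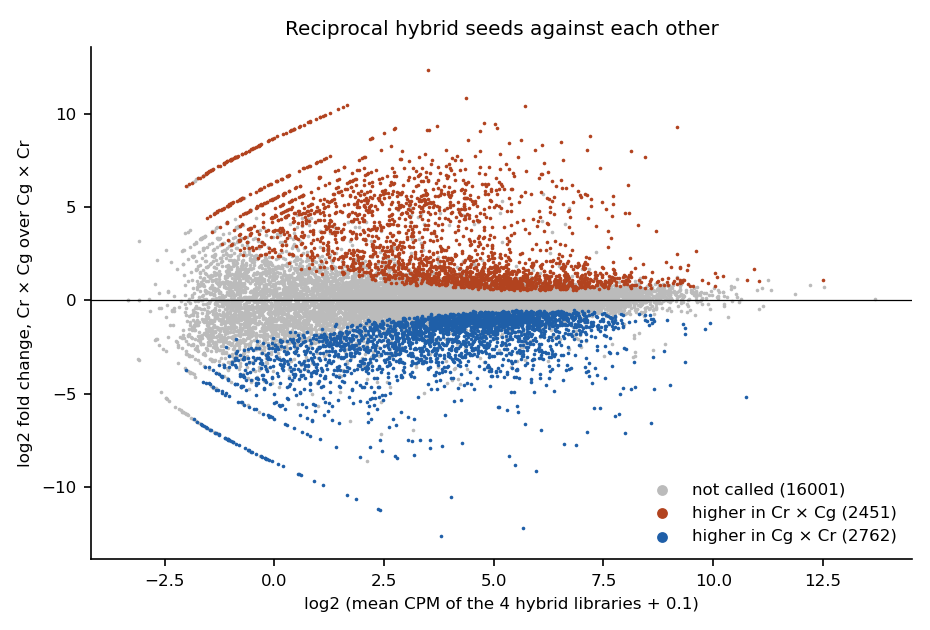
Each point is 1 of the 21214 tested genes. The horizontal axis gives the log2 of the mean CPM of the 4 hybrid libraries after adding 0.1, and the vertical axis the log2 fold change of Cr × Cg over Cg × Cr. Of the 2451 genes called higher in Cr × Cg (red) 557 lie at 5 or above, and of the 2762 called higher in Cg × Cr (blue) 169 lie at -5 or below, while the farthest points reach 12.33 and -12.63. The rows of points at the left are genes with 0 or few counts in one hybrid.

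The number of genes called depended on single libraries. Without Cr × Cg replicate 2 there were 1139 genes higher in Cr × Cg and 1137 higher in Cg × Cr, and without Cr × Cg replicate 1 there were 1750 and 1697. Without Cg × Cr replicate 1 the counts were 1241 and 1621, and without Cg × Cr replicate 2 they were 1464 and 1695. The calls that held in all 4 of these fits numbered 872 higher in Cr × Cg and 926 higher in Cg × Cr. Cr × Cg replicate 2 was the more extreme of its pair. Of the genes higher in Cr × Cg, 67.6% had a greater CPM in it than in replicate 1, and of the genes higher in Cg × Cr, 65.7% had a lower one. The first share was not particular to this pair, since 63.3% of the genes higher in Cr × Cg were also greater in replicate 2 of Cg × Cr.

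The largest differences that held in all 4 fits separated genes that were nearly silent in one hybrid. Carubv10011088m.g, paired with AT1G14755, had 634 and 615 counts in the Cr × Cg libraries and none in either Cg × Cr library. Measured against a floor of 3 counts over the group, this is at least 411.5-fold higher in Cr × Cg (adjusted p = 0.00153, edgeR). The pure Cg libraries held 244 and 64 counts of it and the pure Cr libraries 5 and 7, so it was low in Cr seeds and absent where Cg was the mother and Cr the father.

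Carubv10021607m.g, paired with AT3G24130, followed the same pattern with 1136 and 1140 counts in Cr × Cg against 0 and 1 in Cg × Cr, a ratio of 2250 with a 95% exact counting interval from 403.3 to 88892 (adjusted p = 0.000389, edgeR). Such intervals and floors cover counting error only. Carubv10015802m.g, which has no Arabidopsis pair in the tables used, had 2706 and 3009 counts in Cr × Cg against 0 and 4 in Cg × Cr (log2 fold change 10.42 ± 0.81 SE, adjusted p = 0.0007, edgeR). It was again higher in pure Cg (469 and 391 counts) than in pure Cr (30 and 58). The remaining 5 of the 8 genes with the largest values in this direction were Carubv10007626m.g, Carubv10027729m.g, Carubv10007125m.g (paired with AT4G29285), Carubv10013636m.g (paired with AT1G43910) and Carubv10015739m.g. All 5 had between 50 and 180 counts in each Cr × Cg library and none in Cg × Cr, which makes them at least 71.5-fold to at least 110-fold higher in Cr × Cg.

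In the opposite direction, several of the largest differences matched the mothers. For Carubv10025484m.g the Cg × Cr libraries held 942 and 627 counts and the pure Cg libraries 525 and 1643, with none in the Cr × Cg or pure Cr libraries, so it was at least 529.1-fold higher in Cg × Cr than in Cr × Cg (adjusted p = 0.00401, edgeR). Carubv10007795m.g had 3981 and 1860 counts in Cg × Cr, against 1 and 0 in Cr × Cg (ratio 5910, counting interval 1060 to 233456), beside 2862 and 3467 in pure Cg and none in pure Cr. Carubv10012096m.g, with 359 and 234 counts in Cg × Cr and none in Cr × Cg, and Carubv10004825m.g, paired with AT4G15390, with 86 and 112 counts against none, were likewise detected in pure Cg and at 0 or 1 count in each pure Cr library. Carubv10003451m.g, with 51 and 101 counts in Cg × Cr, had 78 and 157 in pure Cg, 7 and 1 in pure Cr and none in Cr × Cg. Carubv10001449m.g, with 95 and 61 counts in Cg × Cr, had 35 and 46 in pure Cg, 2 and 0 in pure Cr and none in Cr × Cg.

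The remaining pair of these 8 genes was seen almost only in the hybrid itself. For Carubv10000695m.g the Cg × Cr libraries held 750 and 1063 counts, and each of the other 6 libraries between 0 and 8. Its ratio over Cr × Cg was 1834, with a counting interval from 328.8 to 72490 (adjusted p = 0.000791, edgeR). For Carubv10006777m.g they held 145 and 195 counts, the pure Cg libraries 3 and 0, and all others none. Its adjusted p was 0.00499 in edgeR but 0.0982 in DESeq2.

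The genes with the most counts among those that held in all 4 fits included members of enzyme and inhibitor families. Carubv10018549m.g, paired with AT2G19802, reached 1342 and 979 CPM in Cr × Cg and 1.20 and 2.50 CPM in Cg × Cr, with 370 and 348 CPM in pure Cg and 16.8 and 21.0 in pure Cr. Its log2 fold change of 9.30 ± 0.47 (SE) had an adjusted p of 0.000132 (edgeR). Carubv10027521m.g, paired with AT5G46960 of the invertase and pectin methylesterase inhibitor family, stood at 1235 and 1453 CPM in Cr × Cg against 150 and 285 in Cg × Cr (log2 fold change 2.63 ± 0.43). It was higher still in pure Cg, at 3440 and 1694 CPM. Carubv10000841m.g, paired with the serine carboxypeptidase-like gene AT5G08260, had 1071 and 1109 CPM in Cr × Cg against 277 and 304 in Cg × Cr, the latter within the range of 176 to 411 CPM of the parents. Carubv10016634m.g was 762 and 629 CPM in Cr × Cg against 341 and 276 in Cg × Cr (log2 fold change 1.17 ± 0.22).

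On the Cg × Cr side the abundant genes were marked by their low level in Cr × Cg. Carubv10004613m.g is paired with AT4G39800, the inositol phosphate synthase MIPS1, the enzyme that makes the precursor of inositol and of phytate. Its level was 89.5 and 83.9 CPM in Cr × Cg, 624 and 793 in Cg × Cr and 833 to 1569 in the parents (log2 fold change -3.03 ± 0.30, adjusted p = 0.0011, edgeR). Carubv10003637m.g, paired with the aspartic protease gene AT4G04460, stood at 136 and 112 CPM in Cr × Cg, 621 and 1001 in Cg × Cr and 370 to 1247 in the parents. For Carubv10018643m.g, paired with the lipid transfer protein family gene AT5G38160, the values were 175 and 68.6 CPM in Cr × Cg, 1151 and 1233 in Cg × Cr and 792 to 1931 in the parents. Carubv10010881m.g was different, being low with a Cr mother (33.9 and 50.5 CPM in Cr × Cg, 19.3 and 22.0 in pure Cr) and high with a Cg mother (622 and 1375 CPM in Cg × Cr, 267 and 1049 in pure Cg).

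Gene lists were described through the Arabidopsis pairs. Those pairs cover 3668 genes of the table, of which 3315 were tested. Because the tables that hold them list genes that differed in these libraries or in Arabidopsis seeds, the paired genes were called more often than the rest. Of the 3315, 29.0% were higher in Cr × Cg and 29.5% higher in Cg × Cr, and the lists below are read against these shares.

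Imprinted genes and Polycomb subunits were mostly higher in Cr × Cg. Of 9 tested homologues 8 were called higher in Cr × Cg than in Cg × Cr (88.9%, beside 29.0% of all paired genes), 6 of them in all 4 fits, and the median log2 fold change was 3.45. Both Cr × Cg libraries lay above all 4 parental libraries in 7 of the 9, against 18.5% of all tested genes, and both Cg × Cr libraries lay below all of them in 5, against 9.19%. Of the 17 genes listed, only these 9 had a tested homologue, paired through tables chosen in part on these libraries. No such share was taken over the paired genes, so the 2 sides are not like for like. The calls included genes read from the maternal copy in Arabidopsis as well as genes read from the paternal copy. MEA (Carubv10012183m.g), the maternally expressed histone methyltransferase of the FIS complex, had 274 and 198 counts in Cr × Cg against 0 and 8 in Cg × Cr, with 9 to 27 in the parental libraries (log2 fold change 5.78 ± 0.99, adjusted p = 0.00575, edgeR). The libraries of the hybrids did not overlap for MEA, as was the case for 66.3% of all tested genes. FWA (Carubv10007084m.g), a maternally expressed homeodomain gene, stood at 22.7 and 53.8 CPM in Cr × Cg, 1.43 and 2.27 in Cg × Cr and 3.47 to 9.59 in the parents. FIS2 (Carubv10024660m.g), the zinc finger subunit of the same complex as MEA, was the member without a call, at 1.34 and 3.20 CPM in Cr × Cg against 1.20 and 3.67 in Cg × Cr. Both hybrids were below the parental range of 6.87 to 10.6 CPM for FIS2.

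Genes known as paternally expressed in Arabidopsis were also among the calls. SUVH7 (Carubv10011407m.g), a SET domain protein, stood at 36.6 and 68.2 CPM in Cr × Cg against 1.69 and 2.61 in Cg × Cr (log2 fold change 4.61 ± 0.49, adjusted p = 0.0014, edgeR). PEG2 (Carubv10011956m.g) stood at 10.7 and 13.9 CPM against 2.16 and 1.25. The paternally expressed homeodomain gene HDG3 (Carubv10022676m.g) was 138 and 142 CPM in Cr × Cg, within the parental range of 110 to 283, and 42.6 and 68.1 in Cg × Cr, below that range (log2 fold change 1.34).

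Other homeodomain genes of the list, HDG8 and HDG9, are also imprinted in Arabidopsis endosperm and are not counted here as paternally expressed. HDG8 (Carubv10015764m.g) had 57.3 and 213 CPM against 0.531 and 1.97, the largest fold of the list (log2 fold change 6.77 ± 0.87). HDG9 (Carubv10002574m.g) had a log2 fold change of 3.45. Neither the call of HDG9 nor that of HDG3 held without Cr × Cg replicate 2 (adjusted p = 0.0766 and 0.0593, edgeR) or without Cg × Cr replicate 1 (0.0797 and 0.075).

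Of 9 tested homologues of endosperm regulators 3 were higher in Cr × Cg and 3 higher in Cg × Cr. Each share, 33.3%, was near that of all paired genes (29.0% and 29.5%), so the counts set this list apart in neither direction. On counts without the Cr × Cg libraries, 8 of the 9 would pass the filter, and 2 of the 3 calls higher in Cr × Cg are among them. MINI3 (Carubv10011619m.g), a WRKY factor of early endosperm growth, had 41.8 and 47.9 CPM in Cr × Cg, 0.266 and 1.02 in Cg × Cr and 0.919 to 6.69 in the parents (log2 fold change 6.14 ± 0.63, adjusted p = 0.0013, edgeR). CWINV4 (Carubv10022878m.g), a cell wall invertase that splits sucrose, had 58.9 and 68.6 CPM against 20.8 and 21.5. ESF1 (Carubv10002778m.g), a small secreted peptide that in Arabidopsis acts from the endosperm on the suspensor of the embryo, had 93 and 309 counts in Cr × Cg against 4 and 1 in Cg × Cr. Its adjusted p was 0.0367 (edgeR) and rose to 0.13 without Cg × Cr replicate 1, 0.14 without Cr × Cg replicate 2 and 0.158 without Cg × Cr replicate 2.

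The members higher in Cg × Cr act together in Arabidopsis in the breakdown of the endosperm and the formation of the embryo surface. ICE1 (Carubv10017099m.g) and ZOU (Carubv10011964m.g) encode bHLH partners, and ALE1 (Carubv10021339m.g) encodes a subtilisin protease that they control. ICE1 was 70.4 and 41.9 CPM in Cr × Cg, 255 and 370 in Cg × Cr and 216 to 492 in the parents (log2 fold change -2.48 ± 0.34, adjusted p = 0.00256, edgeR). ZOU stood at 6.36 and 6.79 CPM against 15.1 and 40.2, and ALE1 at 8.38 and 16.1 CPM against 41.6 and 129. Without Cr × Cg replicate 1 the adjusted p was 0.0635 for ZOU and 0.101 for ALE1, and without Cr × Cg replicate 2 it was 0.0643 and 0.058. ALE1 also missed the threshold without Cg × Cr replicate 2 (adjusted p = 0.0504, edgeR). The sugar exporter SWEET11 (Carubv10017757m.g), with 675 and 192 counts in Cr × Cg against 3206 and 4355 in Cg × Cr, did not pass (adjusted p = 0.0567, edgeR).

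**Figure D2:**
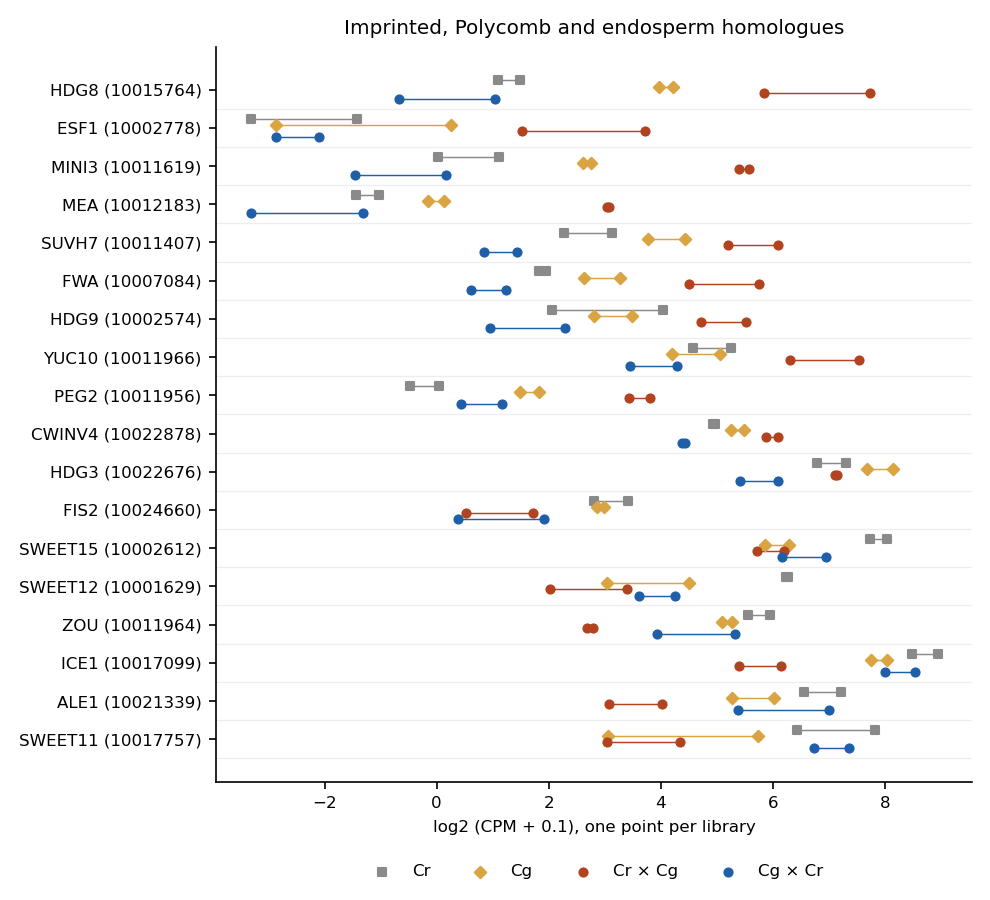
Levels of the 18 tested homologues of imprinted and Polycomb genes and of endosperm regulators, called or not, as log2 of CPM plus 0.1 on the horizontal axis, with 1 point for each library and a line joining the replicates of a cross. Numbers in brackets are the middle part of the C. rubella identifier. The genes are ordered by log2 fold change, and the Cr × Cg points (red) lie to the right of the Cg × Cr points (blue) at the top, from HDG8 and MINI3 down, and to the left of them at the bottom, where ICE1, ZOU and ALE1 stand.

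Cytokinesis genes were mostly higher in Cg × Cr. Of 13 tested homologues that build the phragmoplast or the spindle, the microtubule arrays that lay down a new wall and separate chromosomes, 12 (92.3%, beside 29.5% of all paired genes) were higher in Cg × Cr and none in Cr × Cg. The median log2 fold change was -1.92, and 9 held in all 4 fits. KNOLLE (Carubv10012277m.g), the syntaxin of the forming cell plate, stood at 36.4 and 13.8 CPM in Cr × Cg against 215 and 312 in Cg × Cr, beside 337 to 443 in the parents (log2 fold change -3.39 ± 0.45, adjusted p = 0.00255, edgeR). HIK (Carubv10008207m.g) and TES (Carubv10016650m.g), kinesins that in Arabidopsis are needed for expansion of the phragmoplast, stood at 11.5 and 8.22 CPM and 5.88 and 2.07 CPM in Cr × Cg against 65.7 and 76.1 and 27.6 and 33.0 in Cg × Cr. The lowest p belonged to PAKRP1L (Carubv10012821m.g), a further phragmoplast kinesin, with 11.3 and 9.82 CPM against 60.3 and 68.0 (log2 fold change -2.60 ± 0.21, adjusted p = 0.00064, edgeR). The microtubule bundling protein MAP65-4 (Carubv10016774m.g) and the division plane kinesin POK2 (Carubv10012792m.g) had log2 fold changes of -1.92 ± 0.23 and -2.01 ± 0.25. TPX2 (Carubv10008388m.g), a spindle assembly factor, did not pass, at 54.5 and 59.5 CPM against 75.8 and 107 (adjusted p = 0.0694, edgeR).

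The mitotic cell cycle list followed the same direction, with 15 of 17 tested homologues (88.2%) higher in Cg × Cr, none higher in Cr × Cg, and a median log2 fold change of -1.71. CYCD3;3 (Carubv10017462m.g), a cyclin of the entry into division, was 25.8 and 14.0 CPM in Cr × Cg, 93.4 and 106 in Cg × Cr and 96.9 to 181 in the parents (log2 fold change -2.32 ± 0.31, adjusted p = 0.00251, edgeR). The mitotic cyclins CYCB2;4 (Carubv10020320m.g) and CYCB2;2 (Carubv10004843m.g) stood at 11.7 and 6.45 CPM against 41.0 and 35.1, and at 4.98 and 4.68 CPM against 22.1 and 24.6. AUR2 (Carubv10023819m.g), an Aurora kinase, had a log2 fold change of -1.71 ± 0.27. The members without a call were AUR1 (Carubv10005398m.g), at 16.5 and 16.9 CPM against 22.8 and 26.7, and OSD1 (Carubv10017901m.g), an inhibitor of the anaphase promoting complex, at 9.31 and 13.2 CPM against 10.7 and 15.5. Without Cr × Cg replicate 2 the number called fell from 15 to 9, and 9 held in all 4 fits.

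For the division genes the 2 hybrids stood in different positions relative to the parents. Both Cr × Cg libraries were below all 4 parental libraries in 13 of 13 phragmoplast and spindle members and in 17 of 17 cell cycle members, against 16.5% of all tested genes. Both Cg × Cr libraries were below all parental ones in 5 and 3 of them, against 9.19%. The members were paired through tables that hold genes chosen in part on these libraries. No share of this kind was taken over the paired genes, so the 2 sides are not like for like. The median log2 fold change of the phragmoplast and spindle list was -2.09 for Cr × Cg over Cr and -0.36 for Cg × Cr over Cr. Over Cg, the medians were -1.99 and -0.31. These values share the hybrid libraries with the reciprocal comparison and are given side by side only. In the imprinted, embryo, phragmoplast and cell cycle lists the direction without a call also had 0 members in DESeq2 and 0 at an unadjusted p under 0.05 in edgeR.

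**Figure D3:**
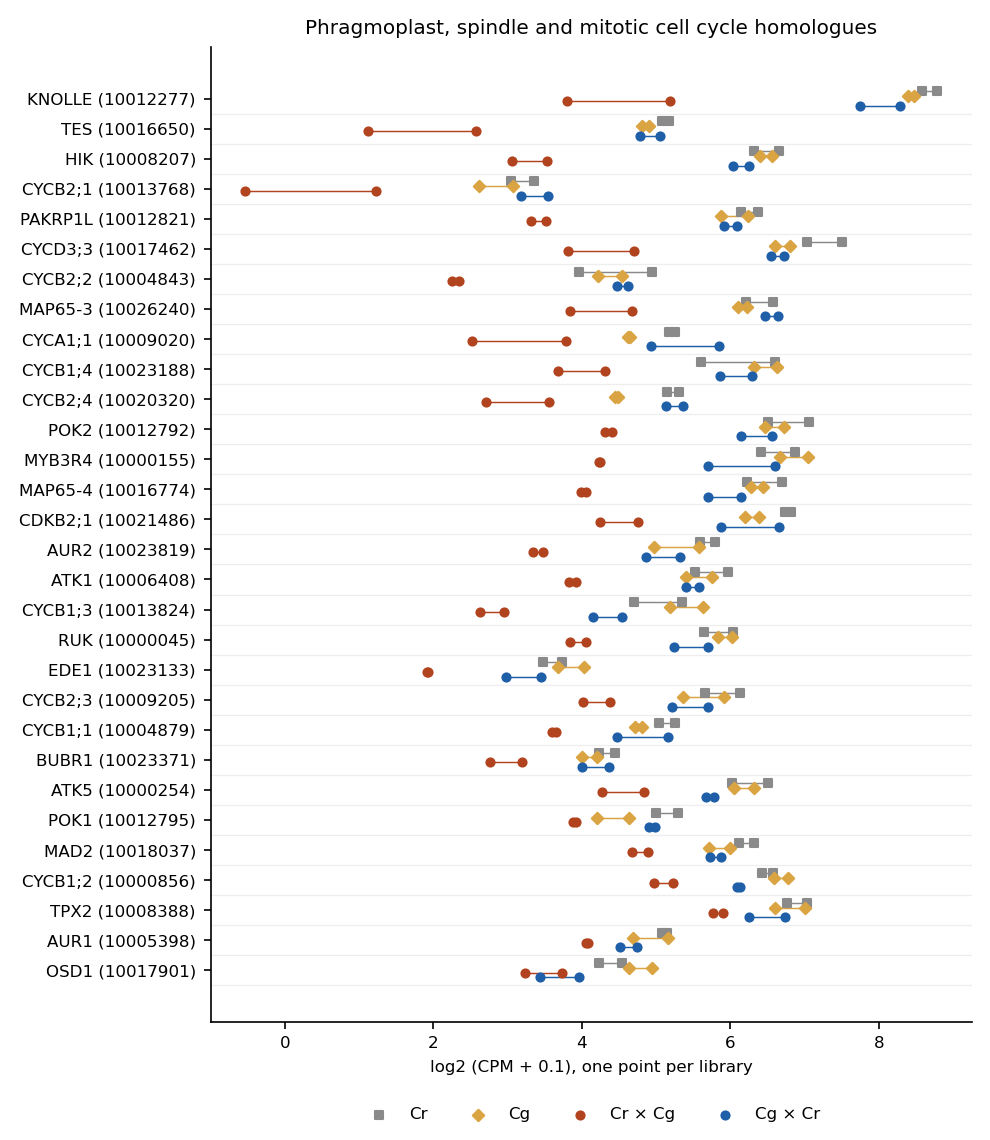
Levels of the 30 tested phragmoplast, spindle and mitotic cell cycle homologues, called or not, as log2 of CPM plus 0.1 on the horizontal axis, with 1 point for each library and a line joining the replicates of a cross. The Cr × Cg points (red) lie to the left of the 4 parental points (grey and yellow) in every gene, and the Cg × Cr points (blue) lie at or just below the parents in most.

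Of 17 listed embryo regulators 8 had a tested homologue. Among these 8, 4 (50.0%, beside 29.5% of all paired genes) were higher in Cg × Cr and none was higher in Cr × Cg. WRI1 (Carubv10018845m.g), the AP2 factor that switches on fatty acid synthesis, stood at 73.0 and 67.2 CPM in Cr × Cg, 191 and 195 in Cg × Cr and 282 to 423 in the parents (log2 fold change -1.46 ± 0.24, adjusted p = 0.00462, edgeR). It was the member that held in all 4 fits. LEC1 (Carubv10011036m.g), FUS3 (Carubv10019353m.g) and bZIP67 (Carubv10019243m.g), which direct embryo identity and seed maturation, had log2 fold changes of -2.11, -3.06 and -3.71 with adjusted p of 0.025, 0.0306 and 0.0241 (edgeR). LEC1 was 10.6 and 25.6 CPM in Cr × Cg, 59.3 and 96.0 in Cg × Cr and 78.0 to 174 in the parents. FUS3 replicates differed within each hybrid, at 26.7 and 6.62 CPM in Cr × Cg against 174 and 106 in Cg × Cr.

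The 4 embryo calls became 3 without Cr × Cg replicate 1, 2 without Cr × Cg replicate 2, 3 without Cg × Cr replicate 1 and 1 without Cg × Cr replicate 2. DESeq2 called 7. Leaving out any hybrid library ended the call of bZIP67, with an adjusted p between 0.062 and 0.141 (edgeR). LEC1 lost its call without Cr × Cg replicate 1 (0.0872) and without Cg × Cr replicate 2 (0.1). FUS3 lost it without Cr × Cg replicate 2 (0.0805), Cg × Cr replicate 1 (0.0989), Cg × Cr replicate 2 (0.0557) or either pure Cr library (0.0544 and 0.0557). LEC2 (Carubv10010882m.g), a related B3 factor, stood at 30.5 and 39.6 CPM in Cr × Cg against 23.5 and 38.4 in Cg × Cr, with no call.

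None of 12 storage and maturation homologues passed the test between the hybrids, although all 12 had negative log2 fold changes (median -2.20). The 4 lowest unadjusted p-values belonged to OLE2, OLE3, OLE5 and OLE1, oleosins that coat oil bodies, while a further oleosin, OLE4 (Carubv10019300m.g), had 188 and 0 counts in Cr × Cg against 565 and 59 in Cg × Cr (unadjusted p = 0.484, edgeR). OLE2 (Carubv10007329m.g) was 136 and 14.6 CPM in Cr × Cg against 615 and 432 in Cg × Cr (adjusted p = 0.0845, edgeR), and OLE3 (Carubv10028491m.g) was 74.8 and 6.96 against 311 and 336. OLE5 (Carubv10014732m.g) and OLE1 (Carubv10007289m.g) had log2 fold changes of -2.02 ± 0.79 and -2.67 ± 1.22. The cruciferin CRA1 (Carubv10012738m.g) had 4837 and 4 counts in the Cr × Cg replicates, 9252 and 2063 in Cg × Cr, 79322 and 612 in pure Cr and 20 and 2 in pure Cg. Without Cr × Cg replicate 1, 5 members were called higher in Cg × Cr, and with all libraries in, DESeq2 called 2 and edgeR had 3 at an unadjusted p under 0.05.

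Auxin genes were called in both directions, 3 of 8 tested members (37.5%) higher in Cr × Cg and 1 (12.5%) higher in Cg × Cr, beside 29.0% and 29.5% of all paired genes. In the endosperm auxin is made from tryptophan by TAA1-type aminotransferases and YUCCA oxidases. TAR1 (Carubv10011523m.g), an aminotransferase, had 33.7 and 68.3 CPM in Cr × Cg, 2.32 and 5.22 in Cg × Cr and 2.70 to 6.09 in the parents (log2 fold change 3.76 ± 0.56, adjusted p = 0.00373, edgeR). YUC10 (Carubv10011966m.g), a paternally expressed oxidase of the next step that is also counted above among the imprinted genes, had 79.4 and 185 CPM against 10.9 and 19.6. The efflux carrier PIN4 (Carubv10016856m.g) had 37.4 and 42.5 CPM against 13.7 and 13.7. TAA1 (Carubv10020400m.g), an aminotransferase of the same family as TAR1, went the opposite way, at 10.6 and 7.63 CPM in Cr × Cg, 53.7 and 83.9 in Cg × Cr and 28.7 to 97.4 in the parents (log2 fold change -2.92 ± 0.45, adjusted p = 0.00442, edgeR). Those 4 of 8 tested members held in all 4 fits.

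Enzymes that modify pectin, the gel of the primary wall, gave the same counts. Of 8 tested members 3 (37.5%) were higher in Cr × Cg and 1 (12.5%) higher in Cg × Cr, beside 29.0% and 29.5% of all paired genes. The list shares VGD1 and PGA4, which were not called, with the pollen list below. QRT2 (Carubv10015662m.g), a polygalacturonase, had 219 and 419 counts in Cr × Cg against 8 and 19 in Cg × Cr, beside 43 and 22 for pure Cg and 1 and 0 for pure Cr (log2 fold change 4.62 ± 0.76, adjusted p = 0.00483, edgeR). PME17 (Carubv10022941m.g), a pectin methylesterase, had 4 and 2 counts in Cr × Cg against 370 and 149 in Cg × Cr, with 10 to 19 in the parents (log2 fold change -6.37 ± 0.65, adjusted p = 0.00122, edgeR). PME44 (Carubv10004474m.g) and PME3 (Carubv10013226m.g) had log2 fold changes of 1.23 and 1.82 in favour of Cr × Cg. The PME44 call was lost without Cg × Cr replicate 1 (adjusted p = 0.0505, edgeR), and that of PME3 without Cr × Cg replicate 2 (0.105), Cg × Cr replicate 1 (0.089) or Cg × Cr replicate 2 (0.0908).

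**Figure D4:**
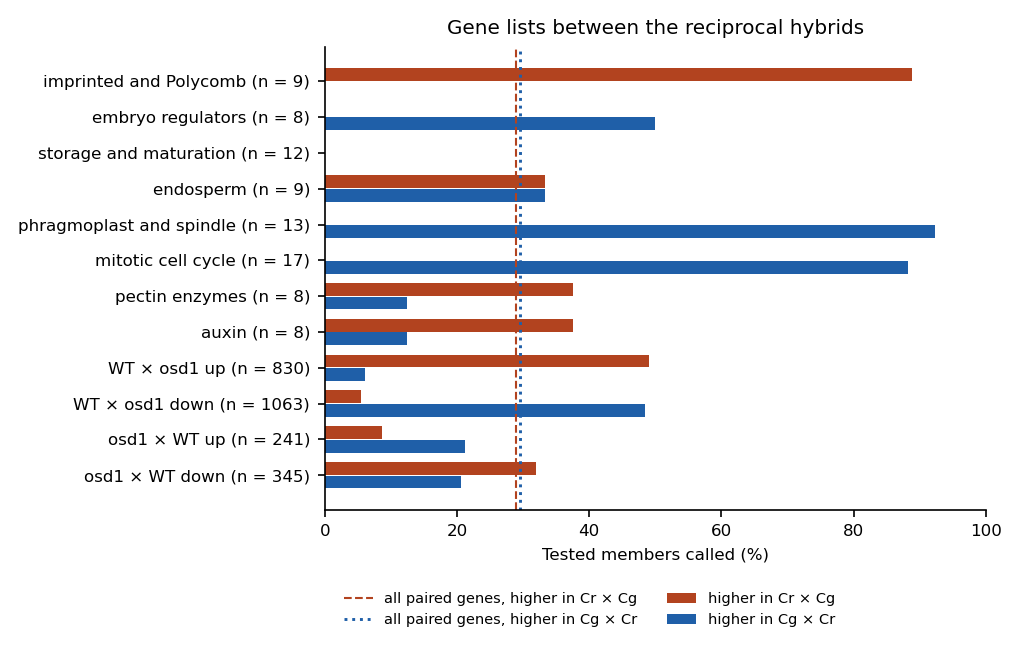
Share of the tested members of each list with at least 8 tested members that was called higher in Cr × Cg (red bars) or higher in Cg × Cr (blue bars), in percent, with the number tested in brackets. The dashed and dotted lines give the same shares over the 3315 tested genes that have an Arabidopsis pair (29.0% and 29.5%). The imprinted and Polycomb list has a red bar only and the division lists blue bars only.

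Markers of other seed parts and of other tissues were few among the paired genes. In the seed coat list 3 of 22 genes had a tested homologue, and 1 (33.3%) was called, beside 29.0% of all paired genes. TT12 (Carubv10018603m.g), a transporter of tannin precursors, was higher in Cr × Cg (149 and 200 CPM against 70.0 and 81.0, adjusted p = 0.0155, edgeR), and STK (Carubv10003771m.g) and MUM4 (Carubv10008513m.g), at 122 and 87.2 CPM against 55.8 and 74.3 and at 101 and 166 against 211 and 48.1, were not called. The TT12 call was lost without Cr × Cg replicate 2 (0.0832), Cg × Cr replicate 1 (0.0872) or Cg × Cr replicate 2 (0.0545). Summed levels of the 3 seed coat genes were 372 and 453 CPM for Cr × Cg, 336 and 203 for Cg × Cr, 513 and 544 for Cr and 285 and 313 for Cg. How far the share of seed coat differs between the hybrids was not tested.

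Pollen and photosynthesis genes gave 1 call, in 1 of 3 tested pollen homologues (33.3%, beside 29.0% of all paired genes). Of 3 pollen homologues HAP2 (Carubv10002940m.g), a sperm fusion protein, was higher in Cr × Cg (37.4 and 50.1 CPM against 11.3 and 18.6, adjusted p = 0.00811, edgeR), and it was also higher in pure Cr (40.0 and 52.8) than in pure Cg (14.4 and 12.3). VGD1 (Carubv10024512m.g) and PGA4 (Carubv10012094m.g), wall enzymes of pollen, were high in 1 library only, with 663 and 901 counts in Cr × Cg replicate 1 and 48 to 197 in the other 7 libraries. RCA (Carubv10023127m.g), the activase of Rubisco, was the 1 photosynthesis gene with a pair and was not called (202 and 171 CPM against 170 and 105, adjusted p = 0.311, edgeR). No member of the DNA methylation list had a pair in the tables used.

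Of 4 tested stress and cell death homologues 1 (25%) was called in each direction, beside 29.0% and 29.5% of all paired genes. BFN1 (Carubv10009855m.g), a nuclease of programmed cell death, stood at 5.91 and 4.43 CPM in Cr × Cg, 62.5 and 64.6 in Cg × Cr and 4.51 to 42.9 in the parents (log2 fold change -3.62 ± 0.49, adjusted p = 0.00276, edgeR). SAG13 (Carubv10023815m.g), a gene of senescence, was higher in Cr × Cg (12.6 and 23.9 CPM against 4.28 and 6.01), a call lost without Cr × Cg replicate 2 (0.157), Cg × Cr replicate 1 (0.133) or Cg × Cr replicate 2 (0.0709). The chaperones HSP70-4 (Carubv10013177m.g) and HSP101 (Carubv10007055m.g) were not called, with adjusted p of 0.0516 and 0.0673 (edgeR). HSP101 had 233 and 596 counts in Cr × Cg against 2 and 44 in Cg × Cr.

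The study also listed the homologues of genes deregulated in Arabidopsis seeds with an extra paternal or maternal genome, made with the osd1 mutant, whose gametes are often unreduced. In WT × osd1 seeds the father gives the extra genome, and in osd1 × WT seeds the mother does. Of 830 tested homologues of genes that were up in WT × osd1, 407 (49.0%) were higher in Cr × Cg and 51 (6.14%) higher in Cg × Cr, with a median log2 fold change of 1.72. Of 1063 homologues of genes that were down there, 58 (5.46%) were higher in Cr × Cg and 515 (48.4%) higher in Cg × Cr, with a median of -1.36. These shares stand beside 29.0% and 29.5% of all paired genes, a set chosen in part on these libraries. On the counts of the other crosses alone, without the Cr × Cg libraries, 742 of the 830 would pass the filter, and 345 of the 407 calls are among them. The remaining calls entered the test only through the libraries in which they were high, which favours a call in that direction. On counts without the Cg × Cr libraries, 1038 of the 1063 would pass. Without Cr × Cg replicate 2 the majority counts fell to 246 and 305, and the counts in the other direction to 25 and 33. The 51 genes of the first list that were higher in Cg × Cr became 24 without Cr × Cg replicate 1, 27 without Cg × Cr replicate 1 and 32 without Cg × Cr replicate 2.

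The lists from seeds with an extra maternal genome were less one-sided. Of 241 tested homologues of genes up in osd1 × WT, 21 (8.71%) were higher in Cr × Cg and 51 (21.2%) higher in Cg × Cr, and 169 were not called. Of 345 homologues of genes down there, 110 (31.9%) were higher in Cr × Cg and 71 (20.6%) higher in Cg × Cr. Of all paired genes, 29.0% were higher in Cr × Cg and 29.5% higher in Cg × Cr. The 31.9% is near that share, and the other shares are below it. The medians were -1.12 and 0.38. Without Cr × Cg replicate 2 these 4 counts were 6, 27, 64 and 43. Without Cg × Cr replicate 1 the first pair was 10 and 32, without Cg × Cr replicate 2 the count of 21 became 7, and without Cr × Cg replicate 1 the count of 71 became 47. On counts without the Cr × Cg libraries, 20 of the 21 and 100 of the 110 genes called higher in Cr × Cg would pass the filter. Differences between the lists were not tested.

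Whether the reciprocal difference follows the species of the mother was examined with the parental seeds, which share no library with the hybrids. Pure Cr and pure Cg seeds differed at 2766 genes (13.0%), of which 1142 (5.38%) were higher in Cr and 1624 (7.66%) higher in Cg. Leaving out 1 parental library lowered the counts to 470 and 706 (Cr replicate 1), 452 and 514 (Cr replicate 2), 559 and 930 (Cg replicate 1) and 370 and 736 (Cg replicate 2). Of the 5213 genes called between the hybrids, 1374 (26.4%) were also called between the parents. In 647 of them the hybrid with the Cr mother differed in the same direction as Cr, and in 727 it differed in the opposite direction. Which of these counts was larger depended on the libraries. Without any 1 parental library the first was larger, and without any 1 hybrid library the second was. With 1 library left out, the first count was 350 to 450, and the second 215 (without Cr replicate 2) to 625. Across all tested genes the 2 sets of log2 fold changes had a Pearson r of -0.04 and a Spearman rho of -0.14, a description over genes, which are not independent replicates.

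Genes higher in Cr × Cg were more often higher in pure Cg, the species of the father. Of the 2451, 444 (18.1%) were higher in Cg, beside 7.66% of all tested genes, and 241 (9.83%) higher in Cr, beside 5.38%. In the 557 genes with a log2 fold change of at least 5, 179 (32.1%) were higher in Cg and 19 higher in Cr. The 2762 genes higher in Cg × Cr included 406 (14.7%) that were higher in Cg, here the species of the mother, and 283 (10.2%) higher in Cr. In the 169 genes with a log2 fold change of -5 or beyond, 78 (46.2%) were higher in Cg and 2 higher in Cr. The alignment used only the C. rubella genome, and how far this lowers the counts of Cg alleles was not tested.

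**Figure D5:**
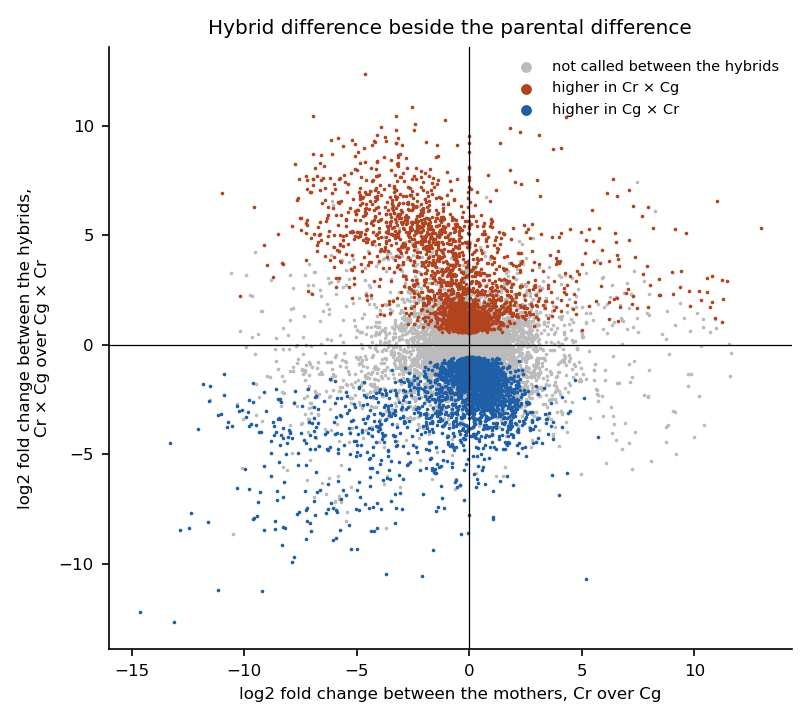
Each point is 1 of the 21214 tested genes, with the log2 fold change of pure Cr over pure Cg seeds on the horizontal axis and that of Cr × Cg over Cg × Cr on the vertical axis. Genes called higher in Cr × Cg (red) with the largest values lie mostly at the upper left, where pure Cg exceeds pure Cr, and genes called higher in Cg × Cr (blue) with the largest values lie mostly at the lower left.

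Complete presence and absence by parent concerned few genes. A pattern chosen after the values were seen asked for at least 10 counts in each library of a pair of crosses and none in the other 4 libraries. It was met by 7 genes for the crosses with a Cg mother, 6 for those with a Cg father, and by no gene for those with a Cr mother or a Cr father. Another 7 genes had at least 10 counts in both Cr × Cg libraries and none in the other 6 libraries, and 1 gene had this for Cg × Cr. The last is Carubv10028159m.g, with 33 and 21 counts in Cg × Cr. Among the Cr × Cg genes are Carubv10003059m.g, with 97 and 84 counts in Cr × Cg, and Carubv10011553m.g, paired with AT1G44090, with 18 and 29 counts.

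Relative to the parents, most of the reciprocal difference lay in the Cr × Cg libraries. Of the 2451 genes higher in Cr × Cg, 1896 (77.4%) had both Cr × Cg libraries above all 4 parental libraries, against 18.5% of all tested genes. In 692 (28.2%) both Cg × Cr libraries were below all parental ones, against 9.19%. Of the 2762 genes higher in Cg × Cr, 1758 (63.6%) had both Cr × Cg libraries below all parental libraries, against 16.5%, and 823 (29.8%) had both Cg × Cr libraries above them, against 10.6%. For the first set the median log2 fold change of Cr × Cg was 1.58 over Cr and 1.39 over Cg, and that of Cg × Cr was -0.38 and -0.66. For the second set the values were -1.16 and -1.10 for Cr × Cg and 0.31 and 0.48 for Cg × Cr. These positions use the libraries that set the calls, so nothing is tested by them.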

How the data were processed

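RNA was measured in whole seeds of 4 crosses, Cr, Cg, Cr × Cg and Cg × Cr, with 2 biological replicates each (TruSeq RNA kit, a kit that does not mark strand). The authors deposited raw, unnormalized counts of reads for each gene. According to the study's methods the authors aligned reads with Stampy to version 1.0 of the C. rubella genome, removed reads of multiple placement with Samtools and counted with htseq-count. The submitters' processing notes also name Trimmomatic. Near copies therefore lose reads, and Cg alleles may align less often.

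Groups and replicate numbers came from the sample titles. Counts were analysed with edgeR 4.0.16 in R 4.3.3. Genes passed filterByExpr with a count minimum of 10, TMM factors were 0.955 to 1.031, and all 8 libraries entered a single robust quasi-likelihood fit with 4 residual degrees of freedom. Benjamini-Hochberg adjustment covered the 21214 tested genes, and genes under an adjusted p of 0.05 were called. SE is the log2 fold change divided by the square root of F. The contrasts were Cr × Cg minus Cg × Cr, Cr minus Cg, and the first minus the second. The study's own rank-based test was not run. With 2 libraries per cross, p-values rest on the spread between pools of seeds.

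Named genes were the 8 with the largest change and the 4 with the most counts in each direction among calls that held without each hybrid library, the 4 lowest p-values of each of 13 lists, and further list members needed to describe a list. A further list and its members are not reported here. Members and lists were chosen with earlier results of these data known. Pairs with Arabidopsis genes came from the study's tables. Alternatives were DESeq2 1.42.0, its size factors, other filters, only the libraries compared, a replicate block, a fold threshold and leaving out each library. The fits were tested on simulated data. No sequences or coordinates are given, since no genome or annotation was used here. Figures were drawn with matplotlib 3.10.9.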

Additional observations from a re-analysis of the deposited data

Results flagged for a closer look

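The difference between the reciprocal hybrids was itself tested against the difference between the pure species, a contrast equal to the effect of a foreign father on a Cr mother minus that on a Cg mother. It passed at 5037 genes (23.7% of those tested) at an adjusted p under 0.05 in edgeR's quasi-likelihood test, 2515 positive and 2522 negative. Within lists it passed for 7 of 9 imprinted and Polycomb homologues, all positive. It passed for 11 of 13 phragmoplast and spindle members and 14 of 17 cell cycle members, all negative. Other lists passed too. Of 9 endosperm regulators, 3 were positive and 6 negative. Of 8 embryo regulators 4 were negative, and of 12 storage and maturation homologues 2 were negative, with none positive in either list. Of 8 auxin members 3 were positive and 1 negative, and of 8 pectin members 2 were positive and 1 negative. Among homologues of Arabidopsis genes up in WT × osd1 the contrast passed for 473 of 830 (431 positive), and among those down there for 549 of 1063 (488 negative). Of 241 homologues of genes up in osd1 × WT, 19 were positive and 60 negative. Of 345 homologues of genes down there, 122 were positive and 52 negative. The 23.7% is over all tested genes, whereas list members were paired through tables chosen in part on these libraries. No share of paired genes was taken for this contrast.

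Some genes under the filter on low counts were seen in both libraries of a hybrid and in neither library of the other hybrid. They were picked by that pattern at low counts. Whether they are more than counting error would give was not tested. Of the 5307 untested genes, 110 had at least 3 counts in both Cr × Cg libraries and none in Cg × Cr, and 86 had the reverse. One of the 110 is the homologue of ADM (Carubv10002694m.g), a paternally expressed gene tied to the abortion of triploid seeds in Arabidopsis, with 8 and 16 counts in the Cr × Cg libraries and none in the other 6 libraries.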

How the results depend on the processing

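Counts over all genes stayed within 1.5 times the reported value in 52 of 54 pairings of 1 count with 1 other setting. The settings were another tool, scaling, filter, threshold, replicate block or set of libraries, and each gave several of the counts. DESeq2 gave 1838 genes higher in Cr than in Cg in place of 1142, and 1260 genes called in opposite directions between hybrids and parents in place of 727. The cause was not tested. Leaving out 1 library gave 1139 to 2311 genes higher in Cr × Cg and 1137 to 2538 higher in Cg × Cr, 370 to 1119 higher in Cr and 514 to 1565 higher in Cg, 1540 to 2075 positive and 1491 to 1992 negative for the difference of the differences, and 350 to 450 and 215 to 625 genes called with the same and the opposite direction as the parents. Fewer libraries entered these fits. Among named genes, directions turned only in some without a call. With 1 library left out their log2 fold changes ranged from -0.65 to 1.49 for MUM4, from -0.11 to 2.15 for PGA4, from -0.85 to 0.93 for FIS2, from -0.11 to 0.59 for LEC2 and from -0.49 to 0.081 for OSD1. Outside the fits without 1 library, 4 named calls were lost. Carubv10006777m.g had an adjusted p of 0.0982 in DESeq2. FUS3 had 0.0591 and ESF1 0.054 without a filter, ESF1 had 0.0529 with the replicate block, and FUS3 and ALE1 had 0.0524 and 0.0508 in edgeR fits of only the libraries compared.

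The replicate numbers are not stated to pair the crosses. Deviations of same-numbered libraries correlated at 0.24 between the hybrids and at -0.18 to 0.33 over the 6 pairs of crosses. With the replicate number as a block, 2244 genes were higher in Cr × Cg and 2671 higher in Cg × Cr, and 4 storage and maturation homologues were called higher in Cg × Cr.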
